A study of Mus musculus with 16 samples.

Results

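The Cyp2a family of mouse liver was followed across 4 groups of mice as the 4 genes Cyp2a4, Cyp2a5, Cyp2a12 and Cyp2a22. They were taken by symbol from the count table, in which each gene was represented by its RefSeq accession with the highest mean count. All 4 were found, each with 1 accession, among 24970 genes, and all 4 passed the filter on low counts. Polyadenylated RNA of 16 livers was sequenced, 4 in each group. The wild-type mice were C57BL/6 Ntac, and the humanized mice were labelled PXR-CAR-CYP3A4/3A7. In each strain 1 group received vehicle, which was 2% DMSO in corn oil, and 1 group received TCPOBOP at 3 mg/kg. The labels give 2 administrations with 24 h between them and 48 h of treatment. They state neither the sex nor the age of the mice, nor which promoters drive the human genes. They also do not say whether the livers of a group came from separate cages or litters, so p-values measure the spread between these samples, which may be technical.

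Cytochrome P450 enzymes of the CYP2A subfamily are heme proteins of the endoplasmic reticulum that oxidize small lipophilic molecules. CYP2A5 is the mouse coumarin 7-hydroxylase and also oxidizes nicotine and bilirubin, much as CYP2A6 does in human liver. CYP2A4 is a steroid 15-alpha-hydroxylase whose gene is known to be more active in female than in male mouse liver, and CYP2A12 hydroxylates testosterone. TCPOBOP is a synthetic agonist of mouse CAR, the nuclear receptor encoded by Nr1i3, and it activates human CAR poorly. Cyp2a5 is known as a target of CAR, and also of NRF2 and of the circadian factors DBP, TEF and HLF.

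The genes lie in the Cyp2 cluster of chromosome 7 in GRCm38 (mm10), in the order Cyp2a4 (NM_009997, 26307192 to 26315088), Cyp2a5 (NM_007812, 26835339 to 26843264), Cyp2a22 (NM_001101467, 26931631 to 26939413) and Cyp2a12 (NM_133657, 27029090 to 27036818). They form 2 pairs of close copies. The spliced Cyp2a4 and Cyp2a5 transcripts of GENCODE M21 were identical at 98.3% of 1738 aligned bases, and those of Cyp2a12 and Cyp2a22 at 96.5% of 1673 aligned bases. Between the pairs the identity was 74.2 to 75.8%. Of the 50-base windows of the Cyp2a4 transcript, 36.1% also occurred in Cyp2a5, and of those of Cyp2a22, 25.7% also occurred in Cyp2a12. No 50-base window was shared between the pairs. How reads that fit both members of a pair were counted is not stated in the labels, so the value of Cyp2a4 or Cyp2a22 is less certain than that of its abundant partner.

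The promoters show the same 2 pairs, and they are given because Cyp2a4 and Cyp2a5 had nearly the same promoter but very different levels. Each is the RefSeq window of GRCm38.p6 from 250 bases before to 50 bases after the annotated gene start, 5′ to 3′ on the gene's strand. For Cyp2a22 the window is set on a start at 26939386, which lies 27 bases inside the outer boundary of the gene given above. The windows are chr7:26835089-26835388 (plus strand) for Cyp2a5, chr7:26306942-26307241 (plus strand) for Cyp2a4, chr7:27028840-27029139 (plus strand) for Cyp2a12 and chr7:26939337-26939636 (minus strand) for Cyp2a22. Capitals mark TATAAA, the TATA box, and TTGCATAA, a sequence of the kind that C/EBP and PAR bZIP factors such as DBP bind.
Cyp2a5: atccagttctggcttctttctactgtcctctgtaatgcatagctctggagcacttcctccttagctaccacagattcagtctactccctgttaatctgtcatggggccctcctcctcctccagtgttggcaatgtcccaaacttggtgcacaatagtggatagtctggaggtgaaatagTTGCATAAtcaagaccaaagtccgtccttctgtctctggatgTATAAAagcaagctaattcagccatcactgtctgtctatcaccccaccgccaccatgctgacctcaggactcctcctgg
Cyp2a4: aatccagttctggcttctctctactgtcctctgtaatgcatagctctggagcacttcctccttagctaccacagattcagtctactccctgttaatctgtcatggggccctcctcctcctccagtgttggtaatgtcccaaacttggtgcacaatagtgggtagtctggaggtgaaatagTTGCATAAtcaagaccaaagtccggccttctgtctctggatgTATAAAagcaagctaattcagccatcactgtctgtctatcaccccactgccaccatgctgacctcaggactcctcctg
Cyp2a12: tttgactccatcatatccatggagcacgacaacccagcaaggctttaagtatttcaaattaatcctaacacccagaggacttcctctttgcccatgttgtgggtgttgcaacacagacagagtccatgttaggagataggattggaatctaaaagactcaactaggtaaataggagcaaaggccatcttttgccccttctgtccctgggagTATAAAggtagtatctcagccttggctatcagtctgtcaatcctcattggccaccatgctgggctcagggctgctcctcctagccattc
Cyp2a22: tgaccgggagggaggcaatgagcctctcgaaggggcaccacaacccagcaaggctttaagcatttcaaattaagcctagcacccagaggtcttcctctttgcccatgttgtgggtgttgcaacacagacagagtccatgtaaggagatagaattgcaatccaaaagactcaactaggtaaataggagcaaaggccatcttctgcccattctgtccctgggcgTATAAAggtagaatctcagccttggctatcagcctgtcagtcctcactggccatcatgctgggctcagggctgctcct
The Cyp2a4 and Cyp2a5 windows were identical at 98.3% of 299 aligned bases and the Cyp2a12 and Cyp2a22 windows at 91.8% of 282, against 64.3 to 66.3% between the pairs. TTGCATAA was found in Cyp2a4, starting at position -70 from the gene start, and in Cyp2a5, starting at -71, and not in the Cyp2a12 or Cyp2a22 window. On either strand, it occurred in 0.743% of 32851 promoter windows of the same length, and the looser TTGCNNAA, which includes it, in 10.8%. TATAAA was in all 4 windows and in 13.6% of all windows. TTANNTAA, the core of the D-box that DBP binds, was in none of the 4 and in 6% of all windows. TGANNNNGC, the core of the NRF2 element, matched at 2 places in each of Cyp2a4 and Cyp2a5, 1 of them overlapping TTGCATAA, and in 41.3% of all windows. AGGTCA, the hexamer bound by nuclear receptors, matched once in Cyp2a4 and once in Cyp2a5 and in 16.3% of all windows. None of the 4 windows held GCGTG, the core bound by the aryl hydrocarbon receptor, which occurred in 32.4% of all windows. A direct repeat of AGGTCA spaced by 4 bases (DR4, of the kind CAR binds) occurred in 0.0152% of all windows and one spaced by 1 base (DR1, of the kind HNF4A binds) in 0.0396%, and neither was in the 4. The motifs were searched after the sequences had been seen, and the matches are descriptions of these letters only.

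Libraries of wild-type livers held 11827994 to 19483951 counts after vehicle and 30228724 to 37998473 after TCPOBOP. Those of humanized livers held 12612610 to 16904182 counts after vehicle and 14019983 to 16755802 after TCPOBOP. The 4 deepest libraries were thus those of wild-type TCPOBOP livers. Mouse Nr1i3, which encodes CAR, ranged from 46.2 to 107 CPM (library-scaled counts) in wild-type livers and from 1.63 to 5.02 CPM in humanized livers, and so followed the strain labels. Defining hepatocyte markers, 6 of 6 with counts, summed to 83266 to 118795 CPM in wild-type vehicle and 31269.5 to 49261 CPM in wild-type TCPOBOP livers, without overlap. In humanized livers they summed to 63143 to 84262 CPM after vehicle and 61442 to 82485 CPM after TCPOBOP. With TCPOBOP in wild-type liver, where Cyp2a5 rose, Alb fell by 1.56 on the log2 scale (edgeR adjusted p = 0.000271) and Trf by 1.23 (adjusted p = 0.00128). Ttr also fell (-0.72, adjusted p = 0.0378). The remaining hepatocyte markers Fgb (-0.69, adjusted p = 0.128), Apoa1 (-0.12, adjusted p = 0.866) and Serpina1a (0.16, adjusted p = 0.77) did not pass. Sinusoidal endothelial markers, 6 of 6 with counts, summed in wild-type livers to 274 to 481 CPM after vehicle and 262 to 317 CPM after TCPOBOP, and in humanized livers to 150 to 184 CPM after vehicle and 87.1 to 249 CPM after TCPOBOP. Stellate cell markers, 6 of 6 with counts, summed to 285 to 373, 244 to 329, 317 to 338 and 110 to 245 CPM in the same order of groups. The part of these shifts in the Cyp2a values was not tested. Of 6 markers of kidney, lung and nasal epithelium, other tissues in which Cyp2a genes are known to be expressed, 2 had no count, and the 6 summed to 0.182 to 6.04 CPM. In whole liver, fewer cells of a type and less RNA per cell cannot be told apart.

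Wild-type vehicle replicate 2 stood apart from its own group in sex-biased genes, and it also stood apart in Cyp2a4. It was the highest of the 4 wild-type vehicle livers for 11 of 18 female-biased genes and the lowest for 12 of 15 male-biased genes. Cux2, a repressor active in female liver, was at 21.7 CPM in replicate 2 and at 0.188 to 0.734 CPM in the other 3. The major urinary protein gene Mup7 was at 42.1 CPM in replicate 2 and at 2908 to 4356 CPM in the other 3. Humanized vehicle livers shared part of this, with Mup7 at 10.4 to 491 CPM and Cux2 at 0.841 to 9.50 CPM. Cyp2a4 was at 1.25 to 4.98 CPM in them. Under vehicle, 6 of 15 male-biased genes were lower and 1 higher in humanized than in wild-type liver, against 8.95% and 7.11% of all genes. Of 10 female-biased genes tested in that comparison, 2 were lower and 0 higher, with a median log2 difference of -1.04. Without wild-type vehicle replicate 2, 1 was lower and 2 were higher, with a median of -0.24. In that fit 2468 of 13037 genes passed in either direction. The female-biased genes Cyp2b13, Cyp3a41a and Sult2a1 were at 0 in all 4 wild-type vehicle livers. Transcripts of the Y-linked gene Ddx3y were at 19.4 CPM in replicate 2 and at 63.4 to 84.6 CPM in the other 3. The Y-linked genes were not uniform in this. Kdm5d had 13.5, 13.1, 20.2 and 16.2 CPM in wild-type vehicle replicates 1 to 4, so replicate 2 was close to replicate 1. In the same order, Eif2s3y had 41.1, 17.1, 50.3 and 49.5 CPM and Uty 10.6, 3.23, 12.2 and 12.4 CPM. Xist, which females express from the inactive X, was at or below 0.622 CPM in all 16 livers. Xist, the Y-linked genes and this comparison of replicate 2 with the others were chosen after the values had been seen. Their part in the Cyp2a4 values was not tested, and the Cyp2a values that turn on replicate 2 are given with and without it. Counts over gene lists are given without it where they move by more than 1.5 times or a median changes sign, from a fit added after the data were seen. Leaving it out raised the number of genes passing with TCPOBOP, in either direction, to 2190 of 13037 in wild-type and 685 of 13037 in humanized liver.

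**Figure D1:**
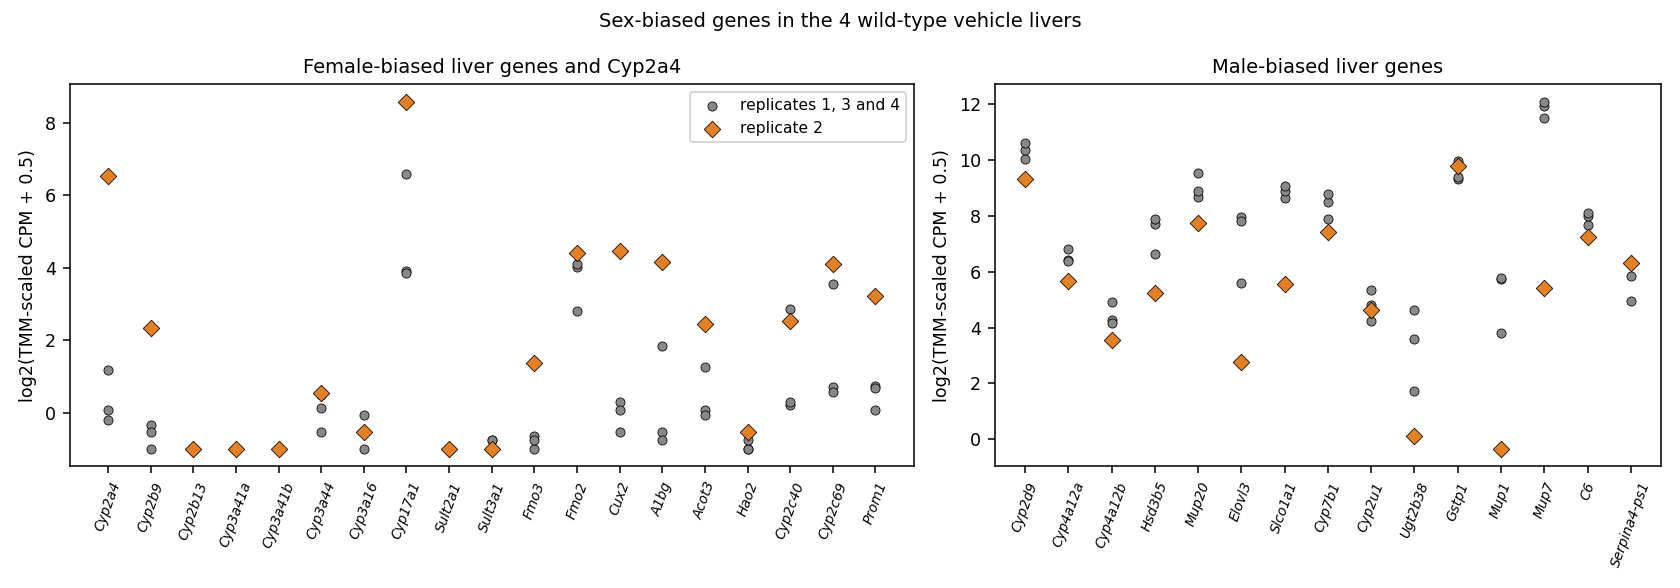
Level of sex-biased genes in the 4 wild-type vehicle livers, as log2(TMM-scaled CPM + 0.5), with Cyp2a4 at the left of the female-biased genes; diamonds mark replicate 2 and circles the other 3. Replicate 2 lies above the other 3 for 11 of 18 female-biased genes and below them for 12 of 15 male-biased genes.

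Levels are TMM-scaled CPM, a CPM corrected for library composition, and group values are mean ± SD with n = 4 livers. Adjusted p-values are Benjamini-Hochberg values of edgeR's quasi-likelihood test over all 12913 genes tested, two-sided, with 0.05 as the threshold. Log2 differences are given ± SE from the same fit.

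Cyp2a5, the coumarin and nicotine hydroxylase gene, was the 1 member that passed the threshold with TCPOBOP in wild-type liver. It was at 534, 551, 219 and 313 CPM in wild-type vehicle replicates 1 to 4, at 2300.1, 4012, 2376 and 3307 CPM with TCPOBOP, at 899, 649, 1189 and 618 CPM in humanized vehicle, and at 1656, 946, 1801 and 1522 CPM in humanized TCPOBOP livers. The 4 wild-type TCPOBOP livers were the highest of all 16 and the 4 wild-type vehicle livers the lowest, with the humanized livers between. The mean was 404.5 ± 164 CPM in wild-type vehicle, 2999 ± 816 CPM in wild-type TCPOBOP, 839 ± 265 CPM in humanized vehicle and 1481 ± 375 CPM in humanized TCPOBOP livers.

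**Figure D2:**
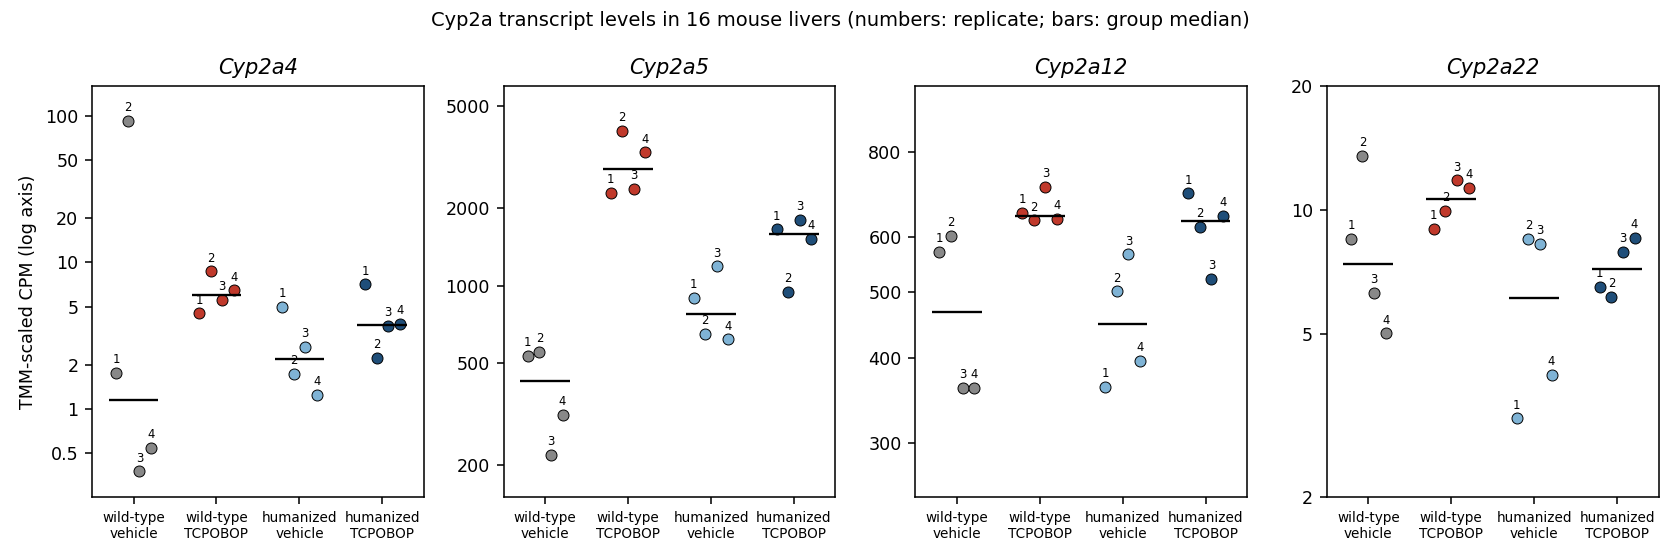
TMM-scaled CPM of each Cyp2a gene in each liver, on log axes that differ between genes; numbers give the replicate and bars the group median. Cyp2a5 in wild-type TCPOBOP livers lies above all other livers, and Cyp2a4 in wild-type vehicle replicate 2, at 92.1 CPM, lies above every other liver.

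In wild-type liver, TCPOBOP raised Cyp2a5 7.41-fold, by 2.89 ± 0.33 on the log2 scale (95% interval 2.20 to 3.58, adjusted p = 1.01e-05). It had the 84th smallest p of the 12913 genes, and its groups did not overlap, which held for 20.9% of all genes tested. Leaving out each of the 16 libraries in turn gave 2.69 to 3.08, with adjusted p from 1.32e-05 to 9.2e-05. With the 8 wild-type libraries alone and the replicate number as a block, the change was 2.94 ± 0.26 (adjusted p = 0.00102). Of the 4 members, 1 passed the threshold here, against 13.1% of all genes tested. Without wild-type vehicle replicate 2, 3 members passed, Cyp2a5, Cyp2a4 and Cyp2a12, against 2190 of the 13037 genes tested in that fit.

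In humanized liver the rise of Cyp2a5 did not pass the threshold. Its log2 difference was 0.82 ± 0.31, or 1.77-fold (95% interval 0.17 to 1.47, unadjusted p = 0.0158, adjusted p = 0.167 by edgeR). TCPOBOP replicates 1, 3 and 4 lay above all 4 vehicle livers, and replicate 2, at 946 CPM, lay within their range. DESeq2 gave an adjusted p of 0.0744. Of the 4 members, 0 passed in humanized liver by edgeR, against 2.52% of all genes. By edgeR 2 had an unadjusted p under 0.05, Cyp2a5 and Cyp2a12, and DESeq2 passed 0 of the 3 members it gave an adjusted p. Groups overlapped for all 4 members, and did not overlap for 9.95% of all genes.

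The response of Cyp2a5 differed between the strains. The difference between the effects, humanized minus wild-type, was -2.07 ± 0.44 on the log2 scale (95% interval -2.99 to -1.15, adjusted p = 0.00706), and it stayed between -2.24 and -1.85 when each library was left out. Of the 4 members, 1 passed for this interaction, against 7.46% of all genes.

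Cyp2a5 also differed between the strains at each treatment, in opposite directions. Under vehicle it was 2.07-fold higher in humanized than in wild-type liver (1.05 ± 0.31, 95% interval 0.40 to 1.70, adjusted p = 0.0304), with all 4 humanized livers above all 4 wild-type livers. Under TCPOBOP it was 2.02-fold lower in humanized liver (-1.02 ± 0.31, 95% interval -1.67 to -0.37, adjusted p = 0.0236), again without overlap. Groups did not overlap for 26.4% and 27.4% of all genes in these comparisons. Cyp2a5 was the 1 member without overlap under vehicle, and Cyp2a22 joined it under TCPOBOP. The threshold was passed by 16.1% and 24.6% of all genes, against 1 of the 4 members in each. Under TCPOBOP that count is near the share over all genes. Both calls of Cyp2a5 were close to the threshold. Under vehicle the adjusted p rose to 0.0772 and 0.106 when humanized vehicle replicate 1 or 3 was dropped. It rose to 0.0759 and 0.0741 when replicate 3 or 4 of the wild-type vehicle livers was dropped. Under TCPOBOP it was 0.0799 without humanized TCPOBOP replicate 2, and with wild-type TCPOBOP replicates 2 and 4 left out in turn it was 0.0738 and 0.0598. These comparisons share groups with the treatment comparisons and are not independent of them.

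**Figure D3:**
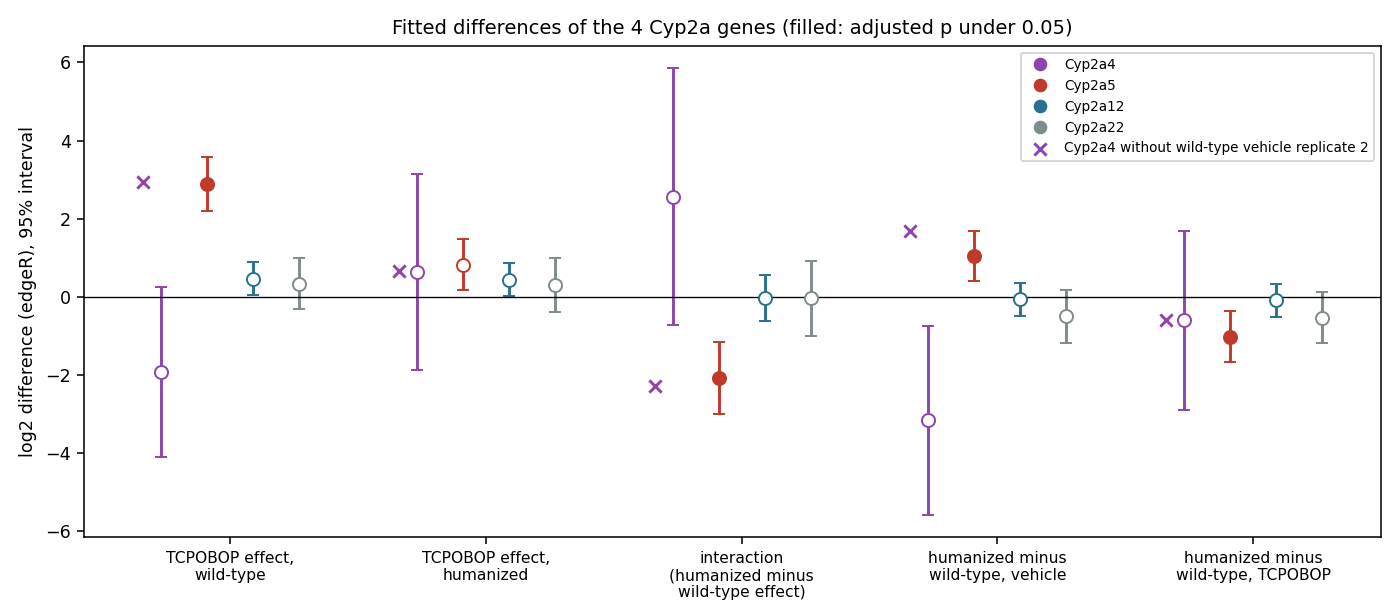
Log2 difference of each Cyp2a gene in the 5 comparisons, from the edgeR fit, with 95% intervals; filled points have an adjusted p under 0.05, and crosses give Cyp2a4 without wild-type vehicle replicate 2. Cyp2a5 is filled in 4 of the 5 comparisons, and the Cyp2a4 point and its cross lie on opposite sides of 0 in 3 of them.

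Cyp2a12, the testosterone hydroxylase gene, did not pass the threshold in any of the 5 comparisons. It was at 572, 603, 362 and 361 CPM in wild-type livers given vehicle, 652, 635, 711 and 638 CPM in wild-type TCPOBOP, 363, 500.4, 567 and 396 CPM in humanized vehicle, and 696, 621, 521 and 646 CPM in humanized TCPOBOP livers. The lowest wild-type TCPOBOP liver was above the highest wild-type vehicle liver, and these groups did not overlap for 20.9% of all genes. In humanized liver, 3 of 4 TCPOBOP livers were above all vehicle livers. The log2 difference with TCPOBOP was 0.47 ± 0.20 in wild-type (95% interval 0.05 to 0.90, adjusted p = 0.141) and 0.44 ± 0.20 in humanized liver (0.02 to 0.87, adjusted p = 0.253), both by edgeR and neither past the threshold. The wild-type difference passed without wild-type vehicle replicate 2 (0.61, adjusted p = 0.0411) and with scaling to library totals alone (0.58, adjusted p = 0.0408). The interaction was -0.03 ± 0.28 (95% interval -0.62 to 0.56). Between the strains, Cyp2a12 differed by -0.06 under vehicle (-0.48 to 0.36) and by -0.09 under TCPOBOP (-0.51 to 0.33).

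Cyp2a4, the steroid 15-alpha-hydroxylase gene, was low in 15 livers and high in 1. Its counts were 12, 968, 4 and 6 in wild-type vehicle replicates 1 to 4, which correspond to 1.76, 92.1, 0.375 and 0.546 CPM. It was at 4.49, 8.68, 5.52 and 6.45 CPM in wild-type TCPOBOP, 4.98, 1.75, 2.66 and 1.25 CPM in humanized vehicle, and 7.09, 2.23, 3.69 and 3.79 CPM in humanized TCPOBOP livers. Wild-type vehicle replicate 2 was thus above every other liver, and the other 3 of its group were at or below 1.76 CPM, below all wild-type TCPOBOP livers.

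With all 16 libraries and the filter on low counts, no difference of Cyp2a4 passed the threshold in edgeR. Without that filter the difference between the strains under vehicle did (-3.16, adjusted p = 0.0487). The log2 difference with TCPOBOP in wild-type liver was -1.92 ± 1.03 (95% interval -4.09 to 0.25, adjusted p = 0.266). Without wild-type vehicle replicate 2 the direction turned, to 2.94 ± 0.55 (adjusted p = 0.00115), from 0.894 ± 0.755 CPM in the remaining 3 livers to 6.29 ± 1.79 CPM with TCPOBOP. With the wild-type libraries alone and the replicate number as a block it was 0.71 ± 1.27 (adjusted p = 0.74). The interaction was 2.56 ± 1.57 (adjusted p = 0.374) with replicate 2 and -2.29 ± 0.71 (adjusted p = 0.0419) without it. The difference between the strains under vehicle was -3.15 ± 1.15 (adjusted p = 0.0667) with replicate 2 and 1.70 ± 0.58 (adjusted p = 0.0506) without it. It passed, still negative, without wild-type vehicle replicate 3 (-3.56, adjusted p = 0.0363) or replicate 4 (-3.56, adjusted p = 0.0386). The 4 groups share 1 estimate of the spread of each gene, so replicate 2 also widens the errors of comparisons between other groups. Under TCPOBOP, humanized livers differed from wild-type livers by -0.59 ± 1.09 (adjusted p = 0.718) with replicate 2 in the fit and by -0.58 ± 0.40 (adjusted p = 0.282) without it. TCPOBOP in humanized liver gave 0.64 ± 1.19 (95% interval -1.86 to 3.14, adjusted p = 0.837) with it and 0.66 ± 0.44 (adjusted p = 0.406) without it. DESeq2 gave no adjusted p for Cyp2a4.

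Cyp2a4 stood in a narrow ratio to its close copy Cyp2a5 outside that liver. Its CPM was 16.7% of that of Cyp2a5 in wild-type vehicle replicate 2 and 0.171 to 0.553% in the other 15 livers, with 0.195 to 0.232% in the 4 wild-type TCPOBOP livers. Whether reads of Cyp2a5 were counted for Cyp2a4 was not tested, and the rise of Cyp2a4 without replicate 2 is given with this limit. Replicate 2 was close to another liver of its group in Cyp2a5, at 551 CPM against 534 CPM in replicate 1. When the counts of both genes were summed, TCPOBOP raised the sum in wild-type liver by 2.81 ± 0.34 (adjusted p = 2.09e-05).

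Cyp2a22, the least described member, was low in every group and did not pass the threshold in any of the 5 comparisons. It was at 8.51, 13.5, 6.29 and 5.002 CPM in wild-type livers given vehicle, 8.98, 9.93, 11.8 and 11.3 CPM in wild-type TCPOBOP, 3.11, 8.50, 8.27 and 3.97 CPM in humanized vehicle, and 6.50, 6.14, 7.89 and 8.53 CPM in humanized TCPOBOP livers. The groups overlapped except under TCPOBOP, where all 4 humanized livers were below all 4 wild-type livers (-0.53 ± 0.31, edgeR adjusted p = 0.23). Those 2 groups did not overlap for 27.4% of all genes. The difference with TCPOBOP was 0.34 ± 0.31 in wild-type (95% interval -0.32 to 0.99, adjusted p = 0.569) and 0.30 ± 0.33 in humanized liver (-0.39 to 0.99, adjusted p = 0.685). Without wild-type vehicle replicate 2, its highest liver, the wild-type difference was 0.69 ± 0.30 (adjusted p = 0.131), and without replicate 4 it was 0.15 (adjusted p = 0.832). The difference between the strains under vehicle was -0.49 ± 0.33 (adjusted p = 0.288), and -0.15 ± 0.31 (adjusted p = 0.736) without replicate 2. Its CPM was 0.857 to 2.24% of that of its close copy Cyp2a12 over the 16 livers, and whether reads of Cyp2a12 were counted for it was not tested.

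The summed CPM of the 4 genes was 911 ± 327 in wild-type vehicle, 3675 ± 794 in wild-type TCPOBOP, 1304 ± 325 in humanized vehicle and 2114 ± 368 in humanized TCPOBOP livers. Cyp2a5 made up 37.3 to 47.9% of the sum in wild-type vehicle livers, where Cyp2a12 was the larger part in all 4. With TCPOBOP it made up 76.5 to 86.0% in wild-type livers. In humanized livers its part was 56.0 to 70.8% with vehicle and 60.0 to 77.2% with TCPOBOP.

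**Figure D4:**
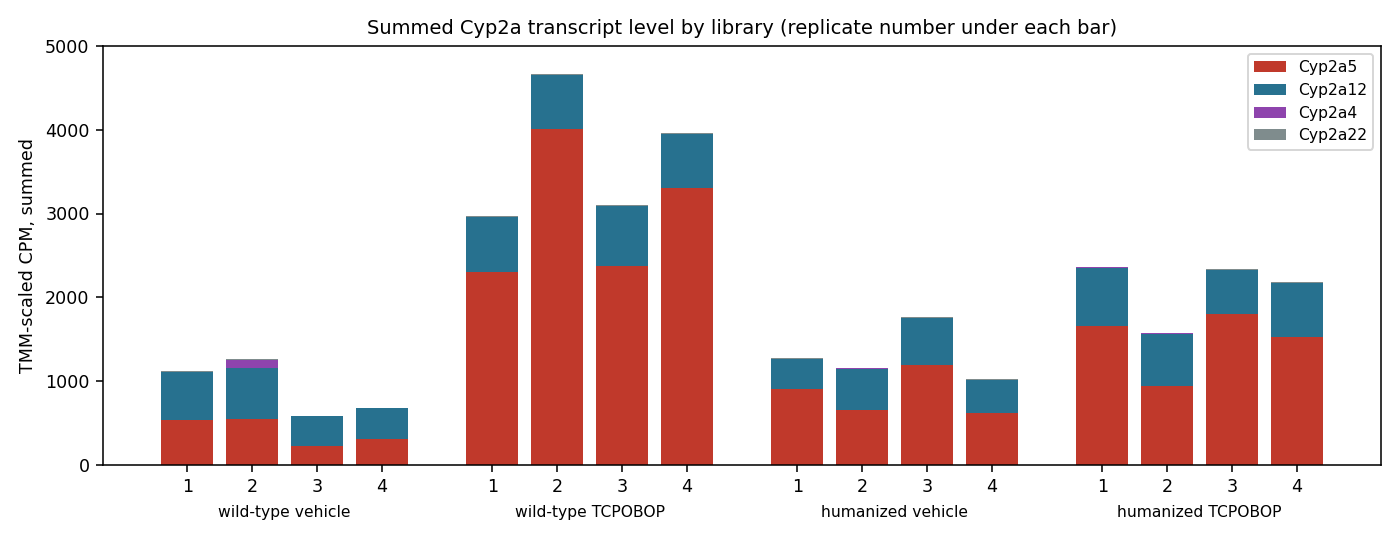
TMM-scaled CPM of the 4 Cyp2a genes stacked for each liver, with the replicate number under each bar. Cyp2a5 forms 76.5 to 86.0% of the stack in wild-type TCPOBOP livers and at most 47.9% in every wild-type vehicle liver, and Cyp2a4 is visible mainly in wild-type vehicle replicate 2.

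Levels of different genes were compared per kilobase of transcript. In wild-type vehicle liver, Cyp2a12 was at 282 ± 77.9 and Cyp2a5 at 201 ± 81.6 CPM per kilobase, with overlapping ranges of 215 to 358 and 109 to 274. Cyp2a4 was at 13.6 ± 26.2 and Cyp2a22 at 4.64 ± 2.09 CPM per kilobase. That mean of Cyp2a4 rests on replicate 2, at 53.0 CPM per kilobase. In the other 3 livers Cyp2a4 was at 0.216 to 1.01 CPM per kilobase, below all 4 values of Cyp2a22, which ran from 2.79 to 7.52. In wild-type TCPOBOP liver, Cyp2a5 was at 1490 ± 405 CPM per kilobase and Cyp2a12 at 392.2 ± 21.1, without overlap. In humanized liver, Cyp2a5 and Cyp2a12 overlapped with vehicle, at 417 ± 132 and 272 ± 55.9 CPM per kilobase, and not with TCPOBOP, at 736 ± 186 and 370 ± 43.7.

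The ratio of 2 members within a library does not depend on library scaling. The log2 ratio of Cyp2a5 to Cyp2a12, with 0.5 CPM added to each, was 2.44 higher in wild-type TCPOBOP than in wild-type vehicle livers and 1.14 higher in humanized than in wild-type vehicle livers. Each had an exact two-sided permutation p of 0.0286, the smallest that 4 against 4 allows, and an adjusted p of 0.0762 over the 8 ratio comparisons made. The permutations took the libraries as unpaired, although replicate numbers may pair the wild-type ones. TCPOBOP moved it by 0.37 in humanized liver (exact permutation p = 0.2857, adjusted p = 0.381). Under TCPOBOP it was 0.93 lower in humanized livers, a difference of -0.93 (exact permutation p = 0.0571, adjusted p = 0.0914). The ratio of Cyp2a5 to Cyp2a4 differed by 2.12 with TCPOBOP in wild-type liver, with the same exact permutation p of 0.0286 and adjusted p of 0.0762. This value rests on replicate 2 and on the 0.5 CPM added to Cyp2a4 levels of 0.375 to 1.76 CPM in the other 3 vehicle livers. With nothing added, Cyp2a4 was 0.171 to 0.329% of Cyp2a5 in those 3 livers and 0.195 to 0.232% with TCPOBOP, and the ranges overlapped. None of the 8 ratio comparisons passed after adjustment, and the other 3 for Cyp2a5 to Cyp2a4 had exact permutation p-values of 0.5714, 0.4 and 0.0571.

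Genes with the profile most like each member were named by the root mean square difference of centred log2(CPM + 0.5) over the 16 libraries, among 9754 genes of at least 5 CPM. For Cyp2a5 they were Nat8f5 (0.47), Aurka (0.61) and Tsku (0.62). Nat8f5 was at 1.86 ± 1.15 CPM in wild-type vehicle, 28.6 ± 4.28 in wild-type TCPOBOP, 4.77 ± 1.33 in humanized vehicle and 7.90 ± 1.68 in humanized TCPOBOP livers, the same order of groups as for Cyp2a5. For Cyp2a12 they were P4hb (0.18), Mccc1 (0.20) and Chid1 (0.20), and for Cyp2a22 Gpr39 (0.25), Nol6 (0.25) and Snd1 (0.25). For Cyp2a4 they were Inf2 (0.87), Tgm2 (1.01) and Tuba1b (1.04), a poorer likeness. Inf2 was at 232 ± 285 CPM in wild-type vehicle livers, a wide spread like that of Cyp2a4. Among the members, Cyp2a12 and Cyp2a22 were the most alike over all 16 libraries, at 0.34, and Cyp2a4 and Cyp2a5 the least, at 1.46. The value of 1.46 includes wild-type vehicle replicate 2, where Cyp2a4 was 16.7% of Cyp2a5, against 0.171 to 0.553% in the other 15 livers. No likeness value, including those of Inf2, Tgm2 and Tuba1b, was computed without that library, so this order may rest on it.

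Neighbours in the gene cluster differed from each other in their response. Of 9 other Cyp2 genes of the cluster, 4 had enough counts to be tested, and the median log2 change with TCPOBOP in wild-type liver was -0.07, and 0.21 without wild-type vehicle replicate 2, against -0.02 over all genes. Cyp2b10, the classical CAR target, was the only 1 of the 4 that rose, by 6.05 in wild-type (adjusted p = 2.44e-07) and by 2.59 in humanized liver (adjusted p = 0.00434). It was at 16.4 to 89.9 CPM in wild-type vehicle, 2871 to 3561 CPM in wild-type TCPOBOP, 14.9 to 23.1 CPM in humanized vehicle and 63.3 to 201 CPM in humanized TCPOBOP livers. Unlike Cyp2a5, Cyp2b10 was lower in humanized than in wild-type liver under vehicle (-1.47, adjusted p = 0.0253). Cyp2f2, which activates naphthalene, did not pass with TCPOBOP in wild-type liver (-0.73, adjusted p = 0.158) and was lower in humanized liver under vehicle (-1.17, adjusted p = 0.0242). Cyp2s1 (-0.91, adjusted p = 0.336) and Cyp2g1 (0.58, adjusted p = 0.577) did not pass in wild-type liver.

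Among other CAR targets, 14 of 15 tested rose with TCPOBOP in wild-type liver, against 8.1% of all genes, with a median log2 change of 2.67. Cyp2b10, Cyp1a2, Por, Ugt1a1 and Abcc2 of this list also stand in other lists described here. Cyp2a5, at 2.89, lay near that median. The smallest p-values belonged to the glutathione transferase gene Gstm3 (6.71, adjusted p = 2.06e-10), Cyp2c55 (6.12, adjusted p = 6.22e-09), the carboxylesterase gene Ces2a (3.41, adjusted p = 8.81e-09) and Cyp2b10. In humanized liver 4 of the 15 rose, against 1.32% of all genes, with a median of 0.45. They were Cyp2b10, Cyp1a2 (1.10, adjusted p = 0.0086), Cyp2c55 (1.21, adjusted p = 0.0399) and Cyp2c50. Under vehicle, humanized livers had 2 of the 15 higher, Gstm3 (1.99, adjusted p = 0.000175) and Abcc4, and 5 lower, against 7.11% and 8.95% of all genes.

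**Figure D5:**
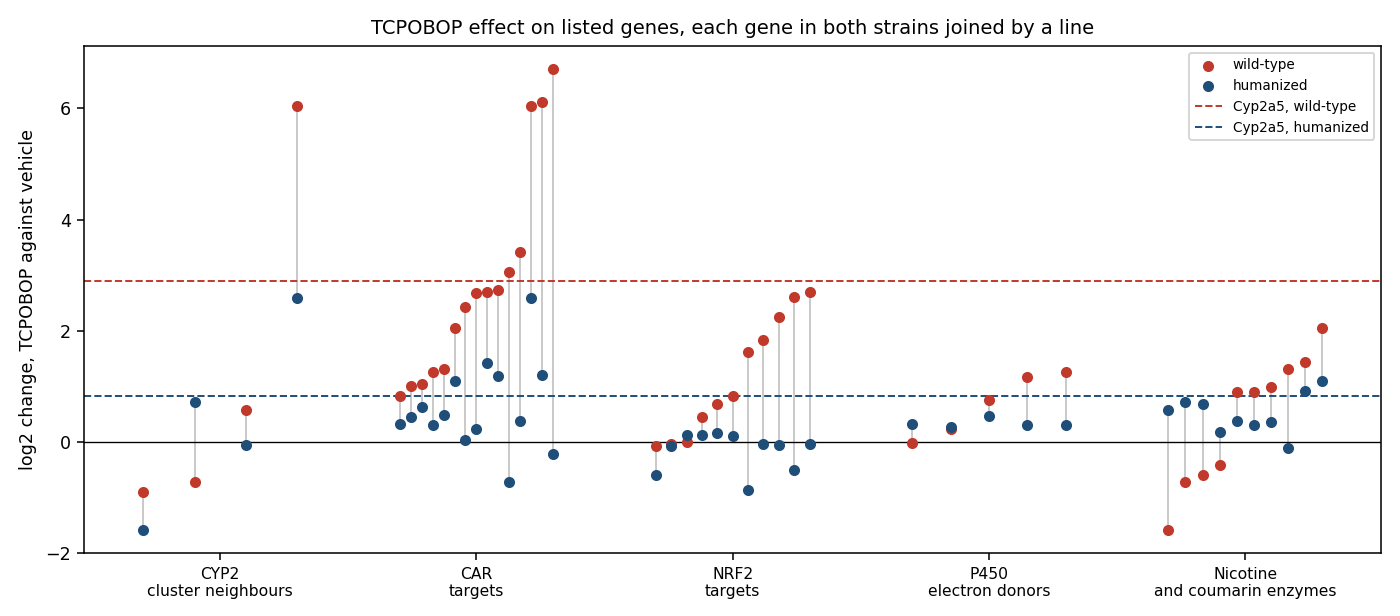
Log2 change with TCPOBOP of each tested gene of 5 lists, in wild-type (red) and humanized liver (blue), with a line joining the strains and dashed lines for Cyp2a5 at 2.89 and 0.82. Cyp2b10 appears in both the cluster and the CAR target list, and the NRF2 genes that rose in wild-type liver lie near or below 0 in humanized liver.

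Of the NRF2 target genes, 5 of 11 tested rose with TCPOBOP in wild-type liver, with a median log2 change of 0.83, against 8.1% of all genes that rose. The glutathione transferase gene Gstm1 rose by 2.61 (adjusted p = 2.5e-06), the peroxiredoxin repair gene Srxn1 by 2.70 (adjusted p = 2.5e-06), the epoxide hydrolase gene Ephx1 by 1.84 (adjusted p = 8.95e-05) and the quinone reductase gene Nqo1 by 1.62 (adjusted p = 0.000524). In humanized liver their median was -0.04, and Nqo1 (-0.86, adjusted p = 0.105) did not pass. The interaction passed for the same 5 genes that rose, each lower in humanized liver, Gstm1 by -3.11 (adjusted p = 4.32e-05) and Nqo1 by -2.48 (adjusted p = 0.000778). Of all genes, 7.46% passed for the interaction. Under vehicle, Nqo1 (1.46, adjusted p = 0.00551) and Gstm1 (0.83, adjusted p = 0.031) were higher in humanized than in wild-type liver, in the direction of Cyp2a5, and the other 9 did not pass. Of all genes, 7.11% were higher in that comparison, and the median log2 difference of the 11 NRF2 targets was 0.04.

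Of 5 genes of electron donors and other partners of P450 enzymes, 3 rose with TCPOBOP in wild-type liver, against 8.1% of all genes. They were cytochrome b5 (Cyb5a, 1.17, adjusted p = 0.000363), Pgrmc1 (0.76, adjusted p = 0.00985) and the P450 reductase gene Por (1.26, adjusted p = 0.0105). In humanized liver the median of the 5 was 0.30, and Pgrmc1 was at 0.46 (adjusted p = 0.199). Of 10 other enzymes of nicotine and coumarin breakdown, 6 rose and 1 fell in wild-type liver, against 8.1% and 4.99% of all genes. Those with the smallest p were Cyp1a2 (2.05, adjusted p = 2.61e-06), the aldehyde oxidase gene Aox1 (1.31, adjusted p = 0.00014), and the glucuronosyltransferase genes Ugt1a9 (0.98, adjusted p = 0.00134) and Ugt1a6a (0.89, adjusted p = 0.00264). Aox3, another aldehyde oxidase gene, fell (-1.59, adjusted p = 0.00438). In humanized liver, Cyp1a2 was the 1 of these 10 that passed, against 1.32% of all genes that rose. Without wild-type vehicle replicate 2, 2 of the 10 fell in wild-type and 2 rose in humanized liver. In that fit 2190 and 685 of 13037 genes passed in either direction. The Ugt1a genes share exons, so their single values are less certain.

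Among genes of heme and bilirubin handling, the bilirubin glucuronosyltransferase gene Ugt1a1 (1.01, adjusted p = 0.000485) and the exporter gene Abcc2 (1.04, adjusted p = 0.0225) rose with TCPOBOP in wild-type liver. In humanized liver Cpox, an enzyme of heme synthesis, rose (0.84, adjusted p = 0.0278).

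Of 20 known regulators of Cyp2a5, Ahr rose (1.13, adjusted p = 0.00685) and 4 fell with TCPOBOP in wild-type liver, which were Stat5b (-0.84, adjusted p = 0.00189), Nr1i3 (-0.94, adjusted p = 0.00198), Ppara (-1.21, adjusted p = 0.0111) and Ppargc1a (-1.12, adjusted p = 0.0227). Of all genes, 8.1% rose and 4.99% fell. In humanized liver Dbp (4.01, adjusted p = 0.00132) and Tef (1.28, adjusted p = 0.0156) rose, against 1.32% of all genes. Without wild-type vehicle replicate 2, 2 of the 20 rose in wild-type and 5 in humanized liver. Of all 13037 genes in that fit, 2190 and 685 passed in either direction. Dbp was at 11.6 to 81.3 CPM in wild-type vehicle, 34.6 to 63.9 CPM in wild-type TCPOBOP, 3.92 to 6.29 CPM in humanized vehicle and 20.1 to 106 CPM in humanized TCPOBOP livers. Dbp was lowest in humanized vehicle livers (-3.51 against wild-type vehicle, edgeR adjusted p = 0.00131). The part of these regulators in the Cyp2a5 values was not tested. Under vehicle, 6 of the 20 were lower in humanized than in wild-type liver, against 8.95% of all genes. Among them were Nr1i3 (-5.50, adjusted p = 1.21e-10), Nr1i2 (-2.85, adjusted p = 1.65e-07), Dbp and Tef (-1.03, adjusted p = 0.0168).

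Clock, zonal and sex-biased genes moved beside the Cyp2a values, and their part in these was not tested. These counts stand against 8.1% of all genes that rose and 4.99% that fell with TCPOBOP in wild-type liver. In humanized liver 1.32% of all genes rose and 2.52% passed in either direction. Between the strains under vehicle, 7.11% were higher and 8.95% lower. Counts without wild-type vehicle replicate 2 stand against 2190 of 13037 genes that passed in either direction in wild-type and 685 in humanized liver. Of 15 clock and D-box genes, 5 rose and 2 fell with TCPOBOP in humanized liver (median 0.77), whereas 1 fell in wild-type liver (median -0.35), or 3 without wild-type vehicle replicate 2. Under vehicle, 4 were higher and 5 lower in humanized than in wild-type liver. Of 15 pericentral genes, the zone in which Cyp2a5 is known to be expressed, 4 rose and 5 fell with TCPOBOP in wild-type liver (median -0.18), and 2 rose in humanized liver (median 0.64), or 6 without that library. Glul, the marker of the innermost pericentral layer, fell in wild-type liver (-0.71, adjusted p = 0.0357), where Cyp2a5 rose. Of 10 female-biased genes tested, 4 rose and 5 fell in wild-type liver, with a median of -1.14, and the median in humanized liver was -0.92. Without that library 4 rose and 3 fell in wild-type liver and the median was 0.45. Of 15 male-biased genes, 1 rose and 5 fell in wild-type liver, and 3 rose in humanized liver, or 5 without it. Summed Kupffer cell markers were at 359 to 766 CPM in wild-type vehicle, 336 to 489 CPM in wild-type TCPOBOP, 163 to 301 CPM in humanized vehicle and 179 to 445 CPM in humanized TCPOBOP livers.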

How the data were processed

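The authors deposited raw counts for 40458 RefSeq accessions, 1 column for each of 16 libraries. The submitters' processing notes name STAR, DESeq2 and mm10, and the labels' protocols name Trizol extraction and poly(A) selection. The labels name neither the counting program nor the strand setting. Among deposited counts of 20 or more, 74.9% were even, so each fragment may have been counted 2 times in part of the table; counts are used as given, and low counts may then stand for fewer fragments. Accessions were joined to symbols for 40214 entries through RefSeq (GRCm38.p6) and for 130 more through GENCODE M21, and 114 had no symbol.

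One edgeR model (version 4.0.16, with R 4.3.3 and limma 3.58.1) with 4 group means covered the 16 libraries, using filterByExpr, TMM and quasi-likelihood F tests, and kept 12913 genes with 12 residual degrees of freedom. The steps were tested on simulated data. Ratios of members were tested by exact permutation with SciPy 1.17.1. Over genes of at least 5 CPM, same-numbered wild-type libraries deviated together from their group means (correlations 0.24 to 0.68 in 4 of 4 pairs). The numbers may thus pair the wild-type libraries, and the labels do not say what a number marks. Between other groups this was not so in all 4 pairs. The main fit and the permutation tests treated all libraries as unpaired, so their p-values between the wild-type groups leave out this likeness. The replicate block was run as an alternative.

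The members and the 11 gene lists were chosen with earlier results of these data known. Up to 4 genes a list with the smallest p are named, and genes making up a count of 5 or fewer, such as Aox3 and Ppargc1a, were named after their values were seen. The alternatives were other scalings, no filter, DESeq2 1.42.0, fewer groups in the fit, summed accessions, a replicate block, thinned libraries, summed Cyp2a4 and Cyp2a5, and each library left out. Some results of the heme and bilirubin list are not reported here.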

Additional observations from a re-analysis of the deposited data

Results flagged for a closer look

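Cyp2a4 in wild-type vehicle livers had 1 library far from the other 3. Replicate 2 was at 92.1 CPM and the others at 0.375 to 1.76 CPM, a gap of 0.985 of the group's whole range, above Dixon's critical value for 4 samples. Of 16 such checks, 4 genes in 4 groups, this was the 1 past its critical value, and chance flags about 1 in 20. The same liver was at 17.4 CPM for the female-biased gene A1bg, against 0.0909 to 3.08 CPM in the other 3, and at 6.37 CPM for the male-biased gene Elovl3, against 47.7 to 252 CPM.

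Cyp2a5 responded differently to TCPOBOP in the strains, with a log2 difference between the effects of -2.07 ± 0.44 (edgeR adjusted p = 0.00706), from a change of 2.89 in wild-type and 0.82 in humanized liver.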

How the results depend on the processing

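Over 33 results and 27 settings, 629 of 682 values kept their direction and side of the threshold and 53 did not. Cyp2a5 kept its call with TCPOBOP in wild-type liver and for the interaction under every setting run. With Cyp2a4 and Cyp2a5 summed, the value set beside Cyp2a4 became 2.81 with TCPOBOP in wild-type liver, -1.99 for the interaction, 0.97 between strains under vehicle and -1.02 under TCPOBOP, where the sum consists mostly of Cyp2a5. In the wild-type libraries alone with a replicate block, a fit added after the data were seen, Cyp2a4 was at 0.71; the block over all 16 libraries, at -0.37 for it, changed no member's call. Library totals alone gave Cyp2a12 0.58 with TCPOBOP in wild-type liver and 2 members called. No filter gave Cyp2a4 -3.16 between strains under vehicle and 2 members called. The interaction changed sign for Cyp2a12 and Cyp2a22 (0.02 each) with DESeq2 size factors and with DESeq2, and for Cyp2a22 (0.18) with thinned libraries. The cause was not tested.

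Leaving out each library gave these ranges. With TCPOBOP in wild-type liver, Cyp2a4 ran from -2.33 to 2.94, Cyp2a12 from 0.36 to 0.61, Cyp2a22 from 0.15 to 0.69 and members called from 1 to 3. In humanized liver, Cyp2a4 ran from 0.31 to 1.17 and Cyp2a22 from 0.08 to 0.55. For the interaction, Cyp2a4 ran from -2.29 to 3.09, Cyp2a12 from -0.15 to 0.09, Cyp2a22 from -0.36 to 0.22 and members called from 1 to 2. Between strains under vehicle, Cyp2a4 ran from -3.68 to 1.70, Cyp2a5 from 0.84 to 1.23, Cyp2a12 from -0.18 to 0.07, Cyp2a22 from -0.74 to -0.15 and members called from 0 to 1. Under TCPOBOP, Cyp2a5 ran from -1.13 to -0.84 and members called from 0 to 1. The change in the log2 ratio of Cyp2a5 to Cyp2a4 with TCPOBOP ran from -0.04 to 0.41 in humanized and from 0.76 to 2.64 in wild-type liver. Counts of 4 to 12 limit Cyp2a4 in 3 wild-type vehicle livers. Over all genes, the number of calls moved widely when 1 library was left out. It ran from 74 to 960 around 325 with TCPOBOP in humanized liver and from 1068 to 2190 around 1691 in wild-type liver. For the interaction it ran from 575 to 1782 around 963, between strains under vehicle from 621 to 3425 around 2074, and under TCPOBOP from 1963 to 4163 around 3175. In humanized liver it was 209 with the replicate block and 182 with only the groups compared in the fit.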
